A study of Oryza sativa with 35 samples.

Results

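Growth-regulating factors (GRFs) are plant transcription factors, and GRF-interacting factors (GIFs) are the coactivators that bind them. The 10 genes described here are the rice GRF genes OsGRF1, OsGRF2, OsGRF3, OsGRF4, OsGRF5, OsGRF6 and OsGRF10 and the coactivator genes OsGIF1, OsGIF2 and OsGIF3, taken by locus identifier from the 55801 loci of the deposited count table. They were measured in inflorescence meristems, the growing tips that form the branches and spikelets of the panicle. None of the 10 genes passed the test between the rice lines or between the tissues, and the 95% intervals of many of these differences lay within a 2-fold change.

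Meristems were taken from Koshihikari, a rice cultivar, and from NIL-Gn1, by its name a near-isogenic line at the grain number locus Gn1; the labels do not give its allele or donor. All plants were grown in short days of 10 h light and 14 h dark. Koshihikari had 5 libraries of R1 tissue, 5 of R2, 3 of R4 and 3 of R5, and NIL-Gn1 had 8, 8, 1 and 2, which makes 35 libraries. These tissue codes are not defined in the labels. Whether replicates are different plants is not stated either, so p-values measure the spread between libraries, which may be technical. Libraries were made by CEL-Seq2, which counts molecules at the 3′ end of transcripts by unique molecular identifiers (UMIs), with no further treatment of the plants named in the labels.

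A GRF protein carries a QLQ domain, through which it binds a GIF protein, and a WRC domain, through which it binds DNA. The GIF protein brings in chromatin remodelling complexes, and the pair promotes cell proliferation in young organs and meristems. Most GRF transcripts are targets of the microRNA miR396, which lowers their level as tissues mature, and in rice this module is known for its effects on panicle branching, spikelet form and grain size.

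Totals ran from 76743 to 375071 UMIs per library, with a median of 109532 in Koshihikari and 186188 in NIL-Gn1. Levels are given in CPM, the UMIs of a locus per total UMIs at tested loci with TMM scaling. A count of 0 would allow up to 3 UMIs, or 8.66 to 45.7 CPM depending on the library, for counting error only. The KNOX genes OSH1 and OSH15, which mark meristem cells, had UMIs in 35 and 35 libraries, and of 7 floral organ genes OsMADS3 and OsMADS58 had 0 UMIs in all, OsMADS8 3, OsMADS6 and OsMADS7 5 each and OsMADS1 8. OsMADS16 had 53 UMIs in 14 libraries, 25 of them in NIL-Gn1 R1 and 23 in NIL-Gn1 R2. FON1, LOG and OsWOX4, the rest of the meristem list, had 104, 40 and 7 UMIs in all, in 30, 19 and 6 libraries. On the second principal component of log2 CPM, which held 6.33% of the variance, Koshihikari R2 replicate 1 stood apart at 58.84. The next library was at 14.74. The lowest, at -14.29, was replicate 5 of the same group, whose replicate 4 was at -11.68 and replicates 2 and 3 at 11.81 and 6.84.

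The 10 loci lie on chromosomes 2 (3 genes), 3 (2 genes), 4 (1), 6 (2), 11 (1) and 12 (1) by their identifiers, and none lies on chromosome 1, which carries Gn1. OsGRF6 (LOC_Os03g51970) and OsGIF1 (LOC_Os03g52320) are close on chromosome 3, with 31 other loci of the table between them. All 10 genes had UMIs in all 35 libraries and passed the filter on low counts. Reads shared between members of this paralogous family could be split by the counting, whose rules are not given in the sources used here.

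OsGIF1, the coactivator known in rice to enlarge organs and grains, stood far above the rest. Its mean over the 35 libraries was 1201 CPM (SD 233), from 786 to 1846 CPM, and 99.4% of the 7406 tested loci had a lower mean. In 35 of 35 libraries OsGIF1 had more UMIs than any of the other 9 genes, and in 34 of 35 it had more UMIs than all 7 GRF genes together. The level of the next gene, OsGRF1, was 7.25-fold lower. Transcript length does not enter a count of 3′ ends, so these are orders of UMI levels, and differences in capture between genes were not measured.

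The coactivators OsGIF2 and OsGIF3 were low beside OsGIF1. OsGIF3 (LOC_Os12g31350) averaged 119.9 CPM (SD 33.8, n = 35) and OsGIF2 (LOC_Os11g40100) 109.6 CPM (SD 30.0, n = 35). OsGIF1 held 83.7% of the UMIs of the 3 GIF genes (SD 3.59 percentage points, n = 35 libraries), with a lowest share of 73.2% and a highest of 92.5%. By group that share lay between 79.8% (SD 5.83, n = 3) in Koshihikari R5 and 86.7% (SD 0.992, n = 2) in NIL-Gn1 R5. OsGIF2 and OsGIF3 differed by less than their SD.

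Among the 7 GRF genes OsGRF1, first described in rice as a gibberellin-responsive gene of the growing stem, had the highest level, at 166 CPM (SD 45.6, n = 35). OsGRF3, one of the GRF genes reported to repress a KNOX gene, followed at 137 CPM (SD 43.4), then OsGRF5 at 131 CPM (SD 34.1) and OsGRF4, a regulator of grain size and nitrogen use, at 112 CPM (SD 41.0). Neighbours in this run, with OsGIF3 and OsGIF2 placed among them, differed by less than the larger of their SDs. OsGRF4 and OsGRF10 were the only adjacent GRF genes among the 7 that differed by more than that SD: OsGRF10 stood at 65.7 CPM (SD 29.8), and OsGRF4 was above it in 28 of 35 libraries. OsGRF6, reported in rice to promote panicle branching, averaged 62.4 CPM (SD 30.7), and OsGRF2 was the lowest of the 10 at 40.3 CPM (SD 22.9), from 1 to 16 UMIs per library.

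**Figure D1:**
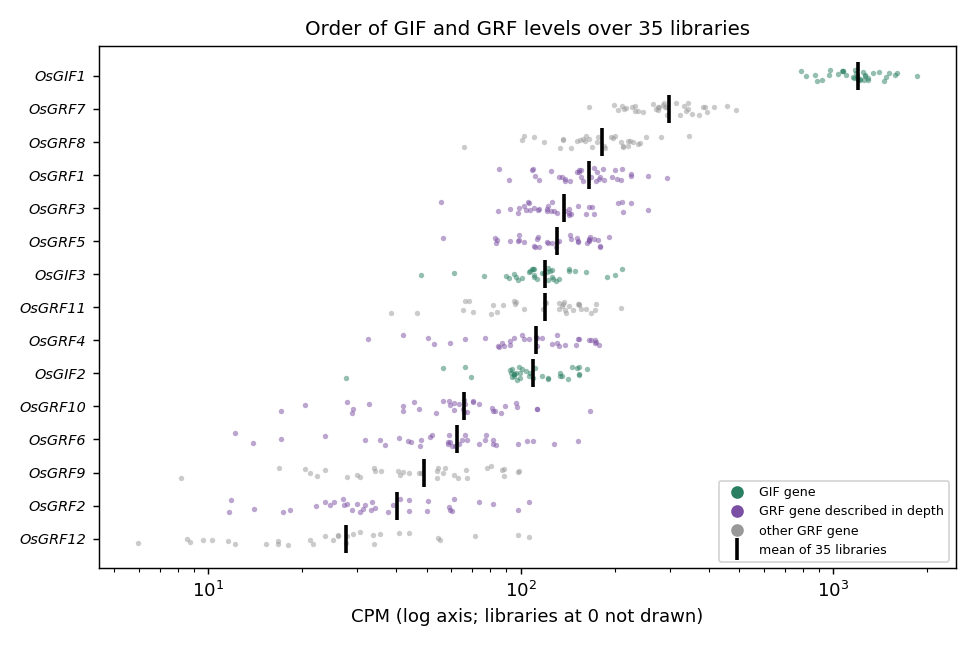
Levels of the 3 GIF genes and all 12 listed rice GRF genes in each of the 35 libraries, in CPM on a log axis; points are libraries and the black tick is the mean. OsGIF1 sits between 786 and 1846 CPM, apart from every GRF gene, while most neighbouring GRF genes overlap.

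The 5 other rice GRF genes were listed for comparison. OsGRF7 was the highest GRF gene of all 12 at 298 CPM (SD 76.0, n = 35) and OsGRF8 the next at 182 CPM (SD 55.5). OsGRF11 was at 119 CPM (SD 40.5), OsGRF9 at 49.2 CPM (SD 25.7) and OsGRF12 the lowest at 27.6 CPM (SD 24.9). Of the GRF UMIs of a library, OsGRF7 held 21.4% on average and OsGRF1 12.02%, while OsGRF2 and OsGRF12 held 2.84% and 1.99%.

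Summed over a library, GIF UMIs exceeded those of the 7 GRF genes 2.04-fold (SD 0.389, n = 35), with a lowest ratio of 1.22 and a highest of 2.86. Set against all 12 GRF genes the ratio was 1.04 (SD 0.196). These ratios need no scaling between libraries. The 7-gene ratio was 1.98 (SD 0.319, n = 5) in Koshihikari R1 and 2.27 (SD 0.328, n = 8) in NIL-Gn1 R1, with ranges that overlapped. It was 2.11 (SD 0.440, n = 5) and 2.09 (SD 0.436, n = 8) at R2. The lowest group value was 1.58 (SD 0.0761, n = 3) in Koshihikari R5, against 2.02 (SD 0.218, n = 2) in NIL-Gn1 R5.

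The spread of the libraries was compared with that of counting alone. Within groups, the squared deviation from the group mean per degree of freedom, which is 1 for counting error only, was 1.07 for OsGIF3, 1.12 for OsGIF2 and 1.12 for OsGRF5, and 1.36 to 2.096 for the other GRF genes. The median over tested loci with a mean of 40 to 200 CPM, 5089 in number, was 1.46. OsGIF1 was at 5.48, against a median of 2.95 over the 83 tested loci at 800 to 1600 CPM. The spread of OsGIF1 was thus larger than counting error, and that of OsGIF2, OsGIF3 and OsGRF5 close to it.

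**Figure D2:**
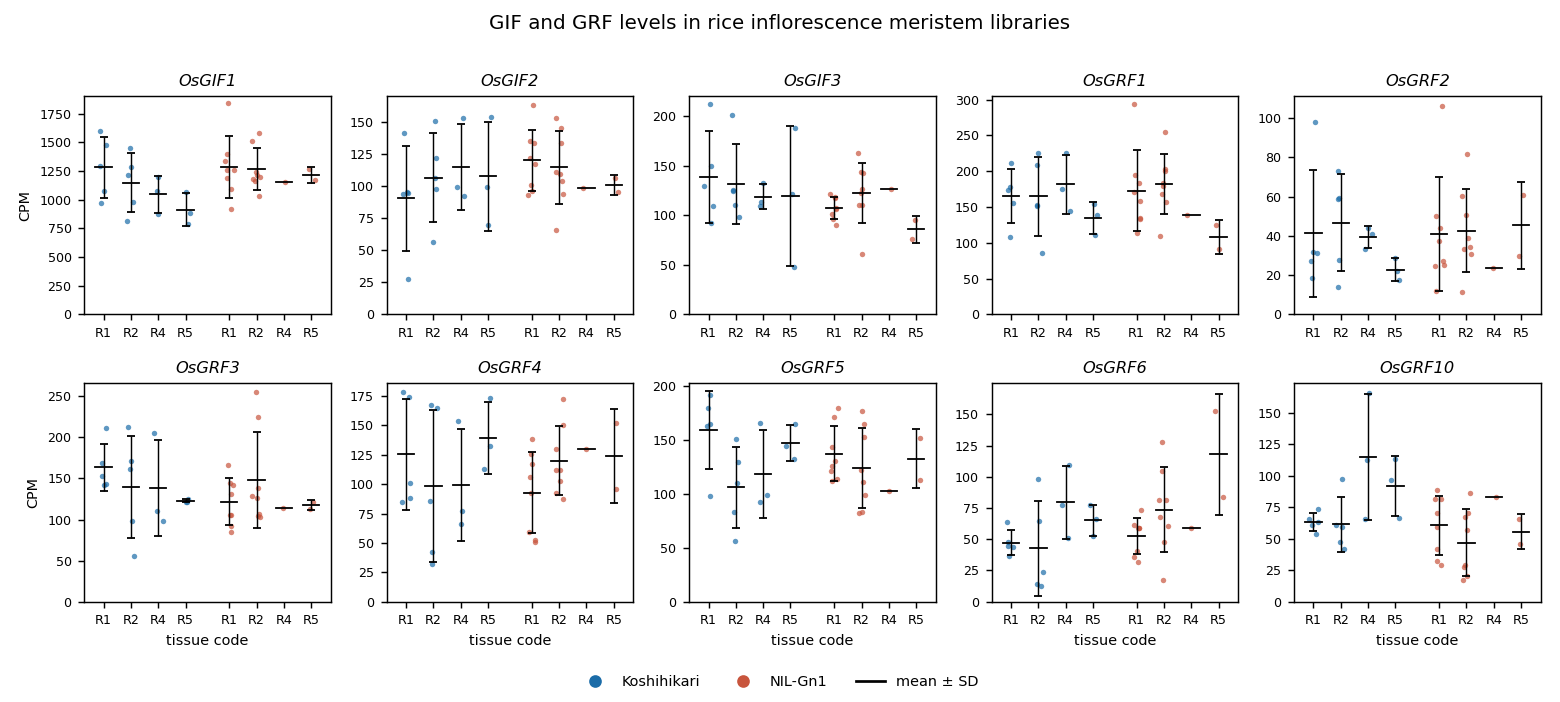
CPM of the 10 genes in each library by tissue code, for Koshihikari and NIL-Gn1; points are libraries, and bars are the mean with the SD where a group has more than 1 library. Each panel starts at 0. OsGIF1 ran from a mean of 1281 CPM at R1 to 913 CPM at R5 in Koshihikari, and no panel shows R4 and R5 libraries wholly apart from R1 and R2 libraries of the same line.

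The lines were compared first at R1 and R2, where the groups are largest. At R1 0 of the 10 genes were called at an adjusted p under 0.05 by edgeR's quasi-likelihood test, where 0.675% of all tested loci were called (in NIL-Gn1 0.189% higher, 0.486% lower), and at R2 0 of 10, where 0.5% were (0.0675% higher and 0.432% lower). Averaged over R1 and R2 it was again 0 of 10, where 2.32% of loci were called (0.608% higher and 1.71% lower), and the smallest adjusted p of the 10 was 0.525. DESeq2 and limma-voom also called 0 and 0 of them in each of the 11 comparisons made, and 3 of the 110 tests of a member had an unadjusted p under 0.05. Of these, 2 were for R4 and R5 against R1 and R2 in Koshihikari, where 29.4% of all tested loci had such a p, and 1 was for R4 against R2 in Koshihikari, where 1481 of the 7406 loci did. In the average over R1 and R2 the intervals of 10 of 10 genes lay within a 2-fold change in either direction. The count of 0 of 10 is near these backgrounds and is no result about the genes, so the intervals carry the description. The libraries of the lines overlapped for all 10 genes at both codes, where 1.07% of loci did not overlap at R1 and 0.675% at R2.

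OsGIF1 had the tightest bound. Koshihikari R1 libraries stood at 1597, 970.4, 1477, 1072 and 1289.7 CPM, and the 8 NIL-Gn1 R1 libraries ran from 920.5 through a median of 1258 to 1846 CPM. At R2 Koshihikari was at 1453, 1286, 1214, 976 and 815 CPM, and NIL-Gn1 ran from 1033 through 1206 to 1577 CPM. The ranges of the lines overlapped at both codes, and without Koshihikari R2 replicate 1 the difference of OsGIF1 at R2 was 0.23 in place of 0.13. Over R1 and R2 the log2 fold change was 0.07 (SE 0.0924, 95% interval -0.12 to 0.25, adjusted p = 0.797), so the data leave room for NIL-Gn1 levels between 0.922 and 1.19 times those of Koshihikari.

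OsGIF2 and OsGIF3 did not pass either. At R1 OsGIF2 was at 95.2, 142, 27.5, 95.01 and 93.7 CPM in Koshihikari and at 92.8 to 163 CPM in NIL-Gn1, with a median of 119.8. Koshihikari R1 replicate 3 was the low value of that group, and the rest lay within the NIL-Gn1 range. The log2 fold change over R1 and R2 was 0.22 (SE 0.192, interval -0.16 to 0.59) for OsGIF2 and -0.24 (SE 0.180, interval -0.60 to 0.12) for OsGIF3.

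None of the GRF genes passed. OsGRF1 was at 211, 174, 156, 109 and 179 CPM in Koshihikari R1 and at 114 to 294 CPM in NIL-Gn1 R1 (median 165), and its log2 fold change over R1 and R2 was 0.11 (SE 0.162, interval -0.21 to 0.43). The groups overlapped. OsGRF4, known in rice as a grain size gene, had Koshihikari R1 values of 84.6, 174, 101, 88.2 and 179 CPM against 50.6 to 139 CPM in NIL-Gn1 (median 99.2). At R2 its Koshihikari libraries were at 85.5, 165, 32.4, 167 and 42.2 CPM, of which 3 lay under the NIL-Gn1 range of 87.3 to 172 CPM and 2 within it. The fitted differences of OsGRF4 were -0.46 (SE 0.274) at R1 and 0.44 (SE 0.308) at R2, neither called, and averaged -0.01 (SE 0.216, interval -0.44 to 0.42).

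OsGRF6 had the largest fitted difference of the 10 genes over R1 and R2, 0.41 (SE 0.272, interval -0.13 to 0.95, adjusted p = 0.525). At R2 its Koshihikari values were 12.2, 23.6, 64.7, 13.9 and 98.4 CPM, of which the lowest 3 stand for 1 or 2 UMIs each, and NIL-Gn1 ran from 17.1 through 74.5 to 128 CPM. Replicate 1, which stands apart on the second component, held the lowest of these values, and without it the difference at R2 was 0.51 in place of 0.71 (adjusted p = 0.762 and 0.548) and that over R1 and R2 was 0.31. Without Koshihikari R2 replicate 3 or 5 the OsGRF6 difference at R2 was 1.05 in each case (adjusted p = 0.419 and 0.299), and over R1 and R2 it was 0.58 and 0.57. The fold over R1 and R2 ran from 0.914 to 1.93 within its interval. OsGRF2, OsGRF3, OsGRF5 and OsGRF10 had log2 fold changes of -0.08, -0.19, -0.07 and -0.18 over R1 and R2, with SEs of 0.319, 0.176, 0.174 and 0.256.

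**Figure D3:**
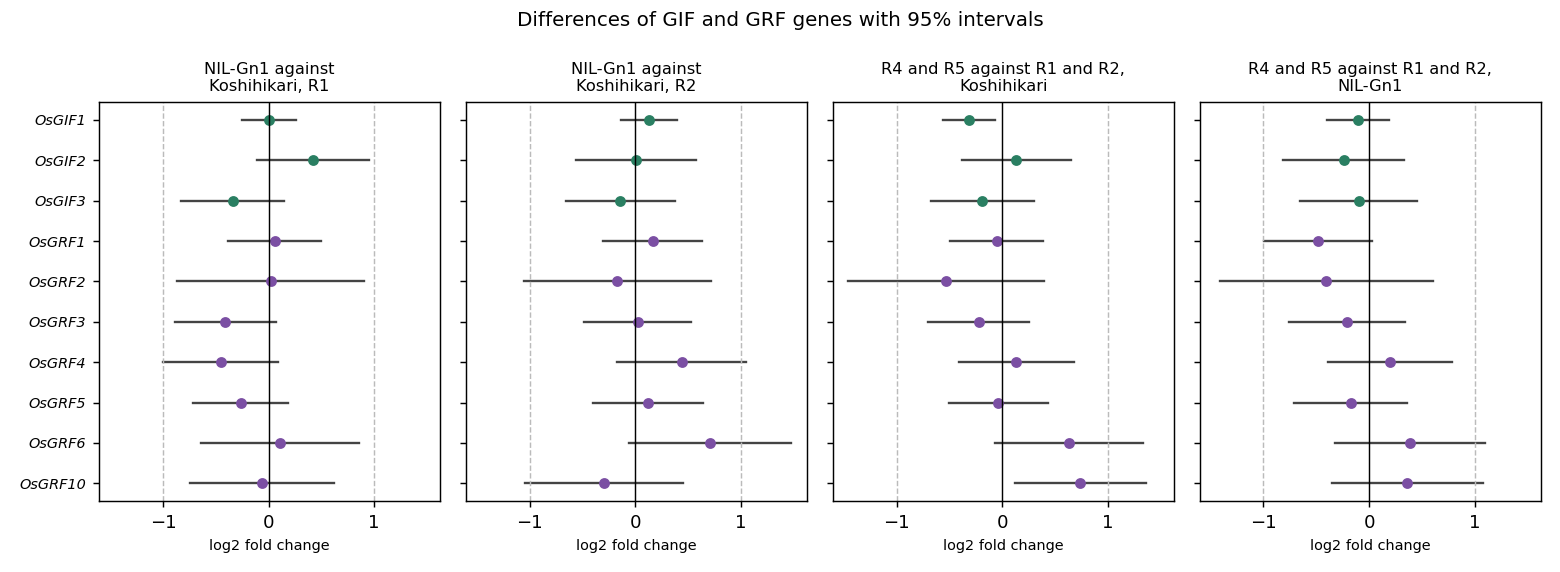
Log2 fold changes of the 10 genes with 95% intervals from the fit over all 35 libraries, for the lines at R1 and R2 and for R4 with R5 against R1 with R2 in each line; dashed lines mark a 2-fold change. Only the intervals of OsGIF1 (-0.56 to -0.07) and OsGRF10 (0.12 to 1.36) in Koshihikari leave out 0, and neither gene was called after adjustment.

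At R4 and R5 few libraries limited the comparison of lines. At R5, where 0.351% of loci were called (0.243% higher and 0.108% lower), 0 of the 10 genes were, and 2 of the 10 intervals lay within a 2-fold change. OsGIF1 was at 1169 and 1265 CPM in NIL-Gn1 R5 and at 1068, 786 and 886 CPM in Koshihikari R5 (log2 fold change 0.41, SE 0.215, interval -0.02 to 0.83, adjusted p = 0.521). These ranges did not overlap, nor did those of OsGRF6 and OsGRF2, higher in NIL-Gn1, and OsGRF10, lower. With 2 libraries against 3, however, 25.2% of all tested loci had ranges that did not overlap, so 4 of 10 is no result about these genes. OsGRF6 read 83.5 and 152 CPM in NIL-Gn1 R5, the second of which rests on 10 UMIs, against 77.0, 66.4 and 52.1 CPM in Koshihikari R5 (0.74, SE 0.553, adjusted p = 0.713).

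NIL-Gn1 R4 was a single library, taken in the fit to vary like the other groups. Of all loci 0.149% were called there (0.108% higher and 0.0405% lower), and of the 10 genes 0. OsGIF1 was at 1154 CPM in that library and at 1074, 872 and 1195 CPM in Koshihikari R4 (log2 fold change 0.14, SE 0.256). The interval of OsGIF1 alone lay within a 2-fold change (-0.37 to 0.65), and that of OsGRF2 ran from -2.51 to 1.08.

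The tissues were then compared. Between R2 and R1, averaged over the lines, edgeR called 0 of the 7406 loci, DESeq2 0 and limma-voom 0, with 530 at an unadjusted p under 0.05, and 0 of the 10 genes among the calls. The intervals of 10 of 10 genes lay within a 2-fold change. The largest fitted difference was that of OsGRF5 (-0.33, SE 0.174, interval -0.68 to 0.01, adjusted p = 0.725), at 179.8, 98.1, 165, 163 and 192 CPM in Koshihikari R1 and 109.9, 129.8, 151, 83.7 and 56.2 CPM in Koshihikari R2. The ranges overlapped, and in NIL-Gn1 the means were 137 CPM (SD 25.6, n = 8) and 124 CPM (SD 36.9, n = 8).

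R4 and R5 tissue was then set against R1 and R2 tissue within each line. The contrast gave the R4 and R5 groups equal weight, and likewise R1 and R2. In NIL-Gn1 the single R4 library therefore weighed as much as the R5 libraries together. Means and SDs in CPM quoted with these contrasts instead weigh each library equally. In Koshihikari 16.5% of tested loci were called, 8.87% higher and 7.6% lower in R4 and R5, against 0 of the 10 genes. In NIL-Gn1 3.93% of loci were called, 2.89% higher and 1.04% lower, against 0 of the 10. A count of 0 of 10 is near both backgrounds and is no result about these genes. The median log2 fold change of the 10 was -0.04 in Koshihikari and -0.14 in NIL-Gn1, where that of all tested loci was -0.06 and -0.05. Intervals lay within a 2-fold change for 7 of 10 genes in each line, the exceptions being OsGRF2, OsGRF6 and OsGRF10. The libraries of both tissues overlapped for all 10 genes in each line, where 3% of loci did not overlap in Koshihikari and 2.51% in NIL-Gn1. For R4 against R2 in Koshihikari 6% of loci were called, 3.44% higher and 2.55% lower, and 0 of the 10. With upper quartile scaling the more frequent direction of the called loci turned in both Koshihikari comparisons, to 213 higher and 233 lower for R4 against R2 (255 and 189 as fitted) and to 590 higher and 638 lower for R4 and R5 against R1 and R2 (657 and 563). For R5 against R4 in Koshihikari edgeR called 0 loci, DESeq2 1 and limma-voom 2, with 536 at an unadjusted p under 0.05, and 0 of the 10.

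OsGIF1 came nearest to a call. Its Koshihikari libraries were at 815 to 1597 CPM at R1 and R2 (median 1250.0, n = 10) and at 786 to 1195 CPM at R4 and R5 (median 977, n = 6). The ranges overlapped, with all 6 R4 and R5 values under the R1 and R2 median. The log2 fold change was -0.31 (SE 0.123, interval -0.56 to -0.07), which missed the threshold with an adjusted p of 0.0663. It passed in 6 of 26 alternative fits, among them upper quartile scaling (-0.36, adjusted p = 0.0289) and those without Koshihikari R1 replicate 2 (0.0347) or Koshihikari R2 replicate 5 (0.0274), while without Koshihikari R2 replicate 1 OsGIF1 gave -0.25 (adjusted p = 0.143). In NIL-Gn1 the difference was -0.11 (SE 0.148, interval -0.40 to 0.19), and the difference between the lines was 0.21 (SE 0.191, adjusted p = 0.703).

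OsGRF10, like OsGRF3 reported in rice to repress a KNOX gene, pointed the other way. It was at 42.2 to 97.6 CPM in the 10 Koshihikari R1 and R2 libraries and at 65.8, 113 and 166 CPM at R4 and 96.2, 66.4 and 113 CPM at R5. The ranges overlapped, and 3 of these 6 R4 and R5 libraries lay above all R1 and R2 libraries. The log2 fold change was 0.74 (SE 0.312, interval 0.12 to 1.36, adjusted p = 0.0919), and it passed in 0 of 25 alternative fits. In NIL-Gn1 it was 0.36 (SE 0.363).

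OsGRF6 and OsGRF1 were not called either. OsGRF6 read 109.6, 51.3 and 77.4 CPM in Koshihikari R4 and 77.0, 66.4 and 52.1 CPM in R5, against means of 47.2 CPM (SD 9.93, n = 5) at R1 and 42.6 CPM (SD 37.8, n = 5, highest 98.4) at R2, and 1 of the 6 R4 and R5 libraries lay above all R1 and R2 libraries (R4 and R5 against R1 and R2: 0.63, SE 0.354, adjusted p = 0.223; NIL-Gn1 0.39, SE 0.360). OsGRF1 was at 138 CPM in NIL-Gn1 R4 and at 125 and 91.4 CPM in R5, within the NIL-Gn1 R1 range of 114 to 294 CPM for 2 of the 3 libraries (-0.48, SE 0.256, interval -0.99 to 0.02, adjusted p = 0.362). In Koshihikari OsGRF1 gave -0.05 (SE 0.222). The interaction of line with R4 and R5 against R1 and R2 called 0.311% of loci (0.216% higher and 0.0945% lower) and 0 of the 10 genes.

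Other markers moved between the same tissues, and their part in these values was not tested. Of the 5 green leaf markers 3 rose in Koshihikari R4 and R5 and 2, both RbcS genes, were under the filter with 8 and 9 UMIs in all. PsbO, 1 of these 3, passed the filter only through Koshihikari R4 and R5 libraries, where it was high, so the filter favoured its call. In NIL-Gn1 0 of the 3 tested green leaf markers were called. The summed level of the list was 148 to 478 CPM in Koshihikari R1 and R2, 570.0 to 1955 CPM in its R4 and R5, 113 to 848 CPM in NIL-Gn1 R1 and R2 and 396 to 907 CPM in its R4 and R5. Of the 5 lateral organ markers, 4 of them tested, 1 rose (OsYABBY5) and 1 fell (DL) in Koshihikari, and 1 rose in NIL-Gn1 (OsYABBY5); the summed level was 689 to 1015 CPM and 933 to 1232 CPM in Koshihikari, and 482 to 1026 CPM and 877 to 1234 CPM in NIL-Gn1. Of the 5 meristem markers, 3 of them tested, 1 fell in Koshihikari (OSH15), with summed levels of 183 to 597 CPM and 243 to 502 CPM, and in NIL-Gn1 of 231 to 747 CPM and 304 to 533 CPM. The 7 floral organ markers were under the filter, at 0 to 52.1 CPM summed. Fewer cells of a type and less RNA per cell cannot be told apart in such bulk tissue.

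Of the 5 other GRF genes 1 rose in Koshihikari R4 and R5, where 8.87% of all loci were called higher and 7.6% lower, 0 fell and 4 were not called. In NIL-Gn1, where 3.93% of loci were called, 5 of 5 were not. These counts of calls are near the background. That gene was OsGRF7, at 246 to 486 CPM (mean 377, SD 81.1, n = 6) in R4 and R5 against 165 to 372 CPM (mean 270.3, SD 65.6, n = 10) in R1 and R2. The ranges overlapped (log2 fold change 0.47, SE 0.167, adjusted p = 0.0388). The call was lost in 11 of 26 alternative fits, among them those without Koshihikari R1 replicate 1 (adjusted p = 0.0512) or 4 (0.0505), R2 replicate 2 (0.0735), R4 replicate 2 (0.110) or 4 (0.109) or R5 replicate 5 (0.116). NIL-Gn1 showed 0.34 (SE 0.191, adjusted p = 0.401) and an interaction of -0.13 (SE 0.255). OsGRF8, not called, gave -0.60 in Koshihikari (SE 0.230, adjusted p = 0.0578) and 0.02 in NIL-Gn1 (SE 0.236). OsGRF9 averaged 42.8 CPM (SD 26.1, n = 10) in Koshihikari R1 and R2 and 77.0 CPM (SD 20.6, n = 6) in R4 and R5. OsGRF11 averaged 128 CPM (SD 35.6) and 87.3 CPM (SD 32.2) there, and the ranges of both genes overlapped. By edgeR's unadjusted p, 4 of these 5 genes were under 0.05 in Koshihikari, where 29.4% of all loci were. Between the lines over R1 and R2, OsGRF12 came nearest to a call (-1.26, SE 0.401, adjusted p = 0.0735), with 54 UMIs in 10 Koshihikari libraries and 50 in 16 deeper NIL-Gn1 libraries.

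Genes that are reported in rice to act with, on or under GRF and GIF proteins were set beside the 10. The list held SLR1, the DELLA repressor of gibberellin signalling, the kinase OsGSK2, the KNOX genes OSH1 and OSH71, the ALOG gene TAW1, the MADS-box gene OsMADS34, the histone demethylase gene OsJMJ706 and the receptor kinase gene OsCR4. Of the 7 tested, 1 rose and 1 fell in Koshihikari R4 and R5, and 1 rose and 2 fell in NIL-Gn1. Of all tested loci 8.87% were called higher and 7.6% lower in Koshihikari, and 2.89% higher and 1.04% lower in NIL-Gn1. The first of the called genes was OsMADS34, a regulator of the change from branch to spikelet meristem. It rose from 12.7 CPM (SD 13.2, n = 10) to 64.1 CPM (SD 33.7, n = 6) in Koshihikari. In NIL-Gn1 it rose from 6.61 CPM (SD 7.19, n = 16) to 49.1 CPM (SD 16.8, n = 3). OsMADS34 passed the filter on low counts only through Koshihikari R5, where it was high (up to 113 CPM). Its highest R1 or R2 library was at 42.2 CPM, so the filter favoured a call of OsMADS34 as rising. Its UMIs were few, 15 against 39 and 18 against 27, so the ratio per UMI total was 5.13 (95% exact counting interval 2.77 to 10.0) and 8.16 (4.33 to 15.7); adjusted p-values were 0.00258 and 0.0013, the latter lost without NIL-Gn1 R5 replicate 1 (0.270).

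TAW1, which holds panicle meristems in branching and is reported to be activated by OsGRF6, fell in both lines, with log2 fold changes of -2.54 (SE 0.166, adjusted p = 1.41e-26) in Koshihikari and -0.80 (SE 0.172, adjusted p = 0.000589) in NIL-Gn1, the latter at an adjusted p of 0.0532 without NIL-Gn1 R5 replicate 1. The difference between the lines in this change passed the test (1.73, SE 0.234, adjusted p = 1.32e-07). TAW1 was also called between the lines at R5, higher in NIL-Gn1 (1.68, SE 0.287, adjusted p = 0.000135). At R4, with a single NIL-Gn1 library, its difference was 1.41. For R4 and R5 against R1 and R2, OsGRF6 was at 0.63 in Koshihikari and 0.39 in NIL-Gn1, neither called. Its interaction was -0.24 (SE 0.500, adjusted p = 0.885). OSH71, the KNOX gene reported to be repressed by OsGRF3 and OsGRF10, fell in NIL-Gn1 from 101 CPM (SD 24.7, n = 16) to 45.0 CPM (SD 2.90, n = 3; -1.15, SE 0.353, adjusted p = 0.0407). The OSH71 call was lost in 10 of 28 alternative fits, with an adjusted p of 0.107 with no filter, 0.0681 by DESeq2, 0.118 with the replicate block and 0.270 after thinning. Without NIL-Gn1 R4 replicate 1 the adjusted p of OSH71 was 0.162, without R5 replicate 1 or 2 it was 0.298 or 0.0719, and without R1 replicate 1 or 5 or R2 replicate 5 it was 0.0526, 0.0529 or 0.0533. In Koshihikari OSH71 gave -0.63 (SE 0.299, adjusted p = 0.137). Between the lines over R1 and R2, OsJMJ706 came nearest to a call of the tested genes on this list (-0.89, SE 0.337, adjusted p = 0.160). OsCR4 was under the filter, with 45 UMIs at R1 and R2 and 12 at R4 and R5 in Koshihikari, a ratio of 0.526 (95% exact counting interval 0.253 to 1.01), and with 94 and 21 in NIL-Gn1, a ratio of 1.22 (0.719 to 1.97). These intervals, like those of OsMADS34, hold counting error only and leave out the spread between libraries. The OsCR4 intervals overlap and each includes 1.

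**Figure D4:**
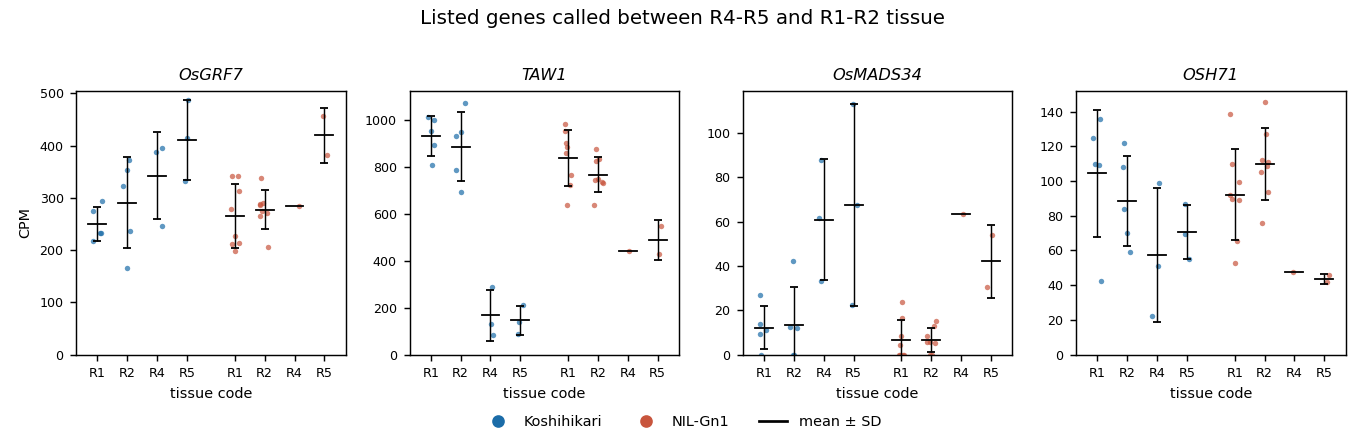
CPM by tissue code in Koshihikari and NIL-Gn1 of the listed genes outside the 10 that were called between R4 with R5 and R1 with R2 tissue; points are libraries, bars the mean with the SD where there is more than 1 library, and axes start at 0. TAW1 fell and OsMADS34 rose in both lines, while OsGRF7 was called in Koshihikari and OSH71 in NIL-Gn1.

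Likeness of pattern was measured over the 35 libraries on log2 CPM, with points that share depth and tissue. Among the 45 pairs of the 10 genes the median Pearson r was 0.06, from -0.30 to 0.48. The loci most like OsGIF1 were LOC_Os05g29050 (r = 0.70, mean 15.9 CPM) and LOC_Os03g07310 (r = 0.63, mean 29.9 CPM). Both means lie within the range that a count of 0 would allow, so these values of r rest on few UMIs. The loci most like OsGRF1 were LOC_Os03g21510 (r = 0.66, mean 138 CPM) and LOC_Os04g14810 (r = 0.64, mean 160 CPM). All 4 were picked as the highest of 7405 values, and their gene names were not used here.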

How the data were processed

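The authors deposited raw UMI counts per locus from CEL-Seq2 libraries, not normalized, 1 column for each of 35 libraries. Per the labels' protocols 100 pg of RNA was amplified with 11 to 15 PCR cycles. Bowtie2 and Subread 2.1 are named in the submitters' processing notes; their roles, the genome build, the annotation and the use of strand are not given in the sources used here. Of 55801 loci 24425 had a UMI.

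The model was edgeR's quasi-likelihood F-test (version 4.0.16, R 4.3.3; robust, TMM scaling, filterByExpr) with a coefficient for each of 8 groups. It used the 35 libraries together and tested 7406 loci holding 86.7% of UMIs. As the smallest group has 1 library, 1 library above the filter's limit could bring a locus into the test. Benjamini-Hochberg adjustment ran over the tested loci of each comparison, and calls were made at an adjusted p under 0.05. Where no tool is named, an adjusted p is edgeR's. SE is the size of the log2 fold change over the square root of F, and intervals are 95% t intervals. Counting intervals are exact (scipy 1.17.1).

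The members, the lists and the contrasts were chosen with earlier results of these data known. All 10 members are named; the listed GRF and pathway genes are named where called or nearest to a call, and the likeness rule took the 2 highest loci for the strongest GRF and GIF gene. OsGRF8, OsGRF9, OsGRF11, OsCR4 and the marker genes named were singled out after their values were seen. Symbols rest on the lists: for 6 of the 10 members the RefSeq table has the name on the same chromosome, for 3 it has none, and its GIF1 is another gene on another chromosome. Coordinates and sequences were not used here.

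The fit was checked on simulated counts with 100 planted 2-fold changes per comparison. For the lines it recovered 51 at R1, 41 at R2, 63 over R1 and R2 and 10 at R5, and the fewest at R4. For R4 and R5 against R1 and R2 it recovered 45 in Koshihikari, 44 in NIL-Gn1 and 18 for the interaction. In Koshihikari it recovered 20 for R4 against R2 and 8 for R5 against R4. The planted loci were drawn at random from the filtered loci, not at the levels of the 10 genes. A missing call alone therefore does not exclude a 2-fold difference, and the interval gives the bound for each gene. No pair of libraries within a group was a duplicate (83 pairs, lowest chi-square per degree of freedom 1.37). Pairs from different groups were not examined. Alternatives were RLE and upper quartile scaling, no filter, a mean of at least 10 counts, DESeq2 1.42.0, limma-voom 3.58.1 with sample weights, only the groups compared, a replicate block, thinning to 76743 UMIs, Koshihikari R2 with replicates 2 and 3 alone, and leaving out each library.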

Additional observations from a re-analysis of the deposited data

Results flagged for a closer look

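Of 40 groups of 5 or 8 libraries examined for the 10 genes, 4 had a highest library far from the rest, where chance flags about 1 in 20 groups. OsGRF1 was at 294 CPM (36 UMIs) in NIL-Gn1 R1 replicate 8, with the next library at 195 CPM. The same library was highest for OsGRF2, at 106 CPM (13 UMIs) against 50.3 CPM in the next. It was also the highest NIL-Gn1 R1 library for OsGRF4, OsGRF5, OsGRF6, OsGIF1 and OsGIF2, but not for OsGRF3, OsGRF10 and OsGIF3. Its summed level of the 10 genes, 3120 CPM, was the highest of the 35 libraries. OsGRF2 was also at 98.1 CPM (9 UMIs) in Koshihikari R1 replicate 2, with the next at 31.7 CPM. OsGIF3 was at 201 CPM (17 UMIs) in Koshihikari R2 replicate 2, with the next at 126 CPM.

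Between the lines, the change of TAW1 from R1 and R2 to R4 and R5 differed by 1.73 on the log2 scale, by the test of the interaction in edgeR (adjusted p = 1.32e-07).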

How the results depend on the processing

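Over 11 comparisons and 275 alternative counts, the number of the 10 genes called stayed at 0 in 269 and was 1 in 6, all for OsGIF1 in R4 and R5 against R1 and R2 of Koshihikari. That count was 1 with upper quartile scaling, with a mean of at least 10 counts, in the fit of only the groups compared, and with replicates 2 and 3 as the only Koshihikari R2 libraries; leaving out single libraries gave 0 to 1. The log2 fold change of OsGIF1 was -0.36 to -0.25 over the 26 alternatives, with adjusted p from 0.0274 to 0.202. Of the 110 member values 51 changed sign in some setting, none of them called there.

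Whether the same replicate numbers pair the libraries is not stated in the labels. Over 64 pairs of libraries with the same number the correlation of deviations was -0.0552 to 0.141, and 1 was above 0.1. Pairs with different numbers were not compared, so these values cannot decide whether numbers pair the libraries. With the replicate number as a block, 0 members were called in any comparison. Between the lines at R1 the block raised the loci called from 50 to 57. The block lowered the loci called between lines from 37 to 15 at R2, from 172 to 110 over R1 and R2, from 11 to 5 at R4 and from 26 to 10 at R5.

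Counts of all called loci varied more. Thinning every library to the shallowest gave 19 for the lines at R1 (50 as fitted), 15 at R2, 57 over both, 1 at R4, 6 at R5, 278 for R4 against R2 in Koshihikari (444), 746 (1220) and 113 (291) for R4 and R5 against R1 and R2 in Koshihikari and NIL-Gn1, and 11 for the interaction (23). limma-voom gave 112 at R1, 3 at R4 and 13 at R5. DESeq2 gave 5 at R4. No filter gave 17 at R5, 4 for R2 against R1 (0) and 45 for the interaction; a mean of at least 10 counts gave 191 in NIL-Gn1. Only the groups compared gave 15 at R2, 217 for R4 against R2 and 4 for R5 against R4 (0). Koshihikari R2 reduced to replicates 2 and 3 gave 100 over R1 and R2, 228 for R4 against R2 and 38 for the interaction. Leaving out single libraries gave 16 to 44 at R2, 4 to 20 at R5, 4 in each case at R4, 201 to 429 for R4 against R2, 92 to 303 in NIL-Gn1 and 8 to 35 for the interaction. The cause was not tested. R4 between lines could not be fitted without its only NIL-Gn1 library. At 1 to 16 UMIs per library the depth limits OsGRF2 most.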
